A study of Mus musculus with 4 samples.

Results

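The calcineurin and NFAT genes are 9 of the 21887 protein-coding genes on which H3K79me2 was examined in cultured mouse thymocytes. They were taken by name, with earlier results of these data known. Ppp3ca, Ppp3cb and Ppp3cc encode the catalytic subunits of the phosphatase calcineurin, and Ppp3r1 encodes its regulatory subunit. Nfatc1, Nfatc2, Nfatc3 and Nfat5 encode transcription factors of the NFAT family, and Camk4 encodes the calmodulin-dependent kinase CaMKIV. All 9 genes had a RefSeq gene body in GRCm38.p6, the assembly that mm10 names, and the gene bodies were 41.1 to 268.0 kb long. Their NCBI gene numbers are 19055 for Ppp3ca, 19056 for Ppp3cb, 19057 for Ppp3cc, 19058 for Ppp3r1, 18018 for Nfatc1, 18019 for Nfatc2, 18021 for Nfatc3, 54446 for Nfat5 and 12326 for Camk4.

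H3K79me2 is dimethylation of lysine 79 on histone H3, set by the enzyme DOT1L on genes that are being transcribed, mostly toward their 5′ ends. It was measured by chromatin immunoprecipitation and sequencing (ChIP-seq). Haematopoietic stem cells of the strain C57BL/6 were grown to the DN3 stage over OP9-DL1 stroma, which presents a Notch ligand, with Flt-3L at 5 ng/mL and IL-7 at 2 ng/mL. The control library came from cells grown with the vehicle DMSO. The inhibitor library came from cells grown with A939572, which blocks SCD1, the desaturase that makes oleic acid. The labels used here give neither the dose of A939572 nor the age of the animals, and the DN3 cells were made in culture, not taken from a thymus. Each condition had 1 ChIP library, so no value below has a replicate error, no difference has a replicate check, and no p-value was computed for a difference. The read depth is unknown. In such bulk samples, fewer cells that carry a mark and less of it per cell cannot be told apart. Values written "with DMSO" come from the control list and those "with A939572" from the inhibitor list.

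Calcineurin is a serine/threonine phosphatase that calmodulin activates when calcium rises in the cell. It removes phosphates from NFATc factors, which then enter the nucleus and bind DNA, often beside AP-1 factors. In thymocytes this route carries calcium signals from the pre-T cell receptor and the T cell receptor, and ciclosporin and FK506 act by blocking it. NFAT5 shares the DNA-binding domain but responds mainly to osmotic stress and lacks the calcineurin docking region. CaMKIV is another target of calcium and calmodulin and phosphorylates the factor CREB.

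The control list held 124962 broad peaks with a median width of 1286 bp, of which 0.643% had q of at most 0.05, and the inhibitor list 35018 peaks with a median width of 1760 bp, of which 18.6% did. The lists covered similar lengths, 234.8 and 233.6 Mb. Peaks at q of at most 0.05, called strong peaks here, covered 11.1 Mb with DMSO and 153.3 Mb with A939572. Fold enrichment and −log10 q are the authors' values for each peak, averaged over the peak. The word fold below stands for this enrichment. Both measures describe peaks within a list and do not give a level that can be compared between lists. Of 10 genes that mark DN3 thymocytes, 6 were covered over at least 50% of their body with DMSO and 9 with A939572. Of 16 markers of OP9 stroma, B cells and myeloid cells, none reached 50% in either list. The stromal receptor gene Pdgfrb, singled out after its value was seen, came nearest with A939572, at 45.3%, against 9.18% with DMSO. Strong inhibitor peaks covered 44.2% of it, and the strongest, 18.4 kb wide, also spans the coding gene Gm52351. With DMSO the B cell gene Ms4a1 came nearest, at 10.7%.

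Inhibitor peaks covered more of the body than control peaks at 8 of the 9 genes, and less at Camk4. The share of coding genes that were higher by any amount was not computed, and 32.7% of them had a difference of exactly 0. Nothing particular to the 9 genes is therefore read from that count. With A939572 the coverage exceeded that with DMSO by 25 points or more for 6 genes, Ppp3ca, Ppp3cb, Nfatc1, Nfatc2, Nfatc3 and Nfat5. That difference was reached by 30.1% of all coding genes and by 30.3% of the 5208 coding genes within the members' range of length. None of the 9 differed by that much in the opposite direction, against 3.07% of coding genes. Because the members were chosen with earlier results of these data known, these shares are a background and not a test. The median difference was 32.0 points over the 9 genes, 0 points over all coding genes and 0 points over those of like length. The mean differences were 35.1, 15.0 and 12.9 points, so coverage was also higher on average with A939572 over coding genes at large. Among the coding genes, 32.4% held no peak in either list. All 9 members held at least 1 peak in both, but their median length was 86.1 kb, against 17.2 kb for all coding genes. The share without a peak among genes of like length was not computed, so nothing particular to the 9 genes is read from this.

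**Figure D1:**
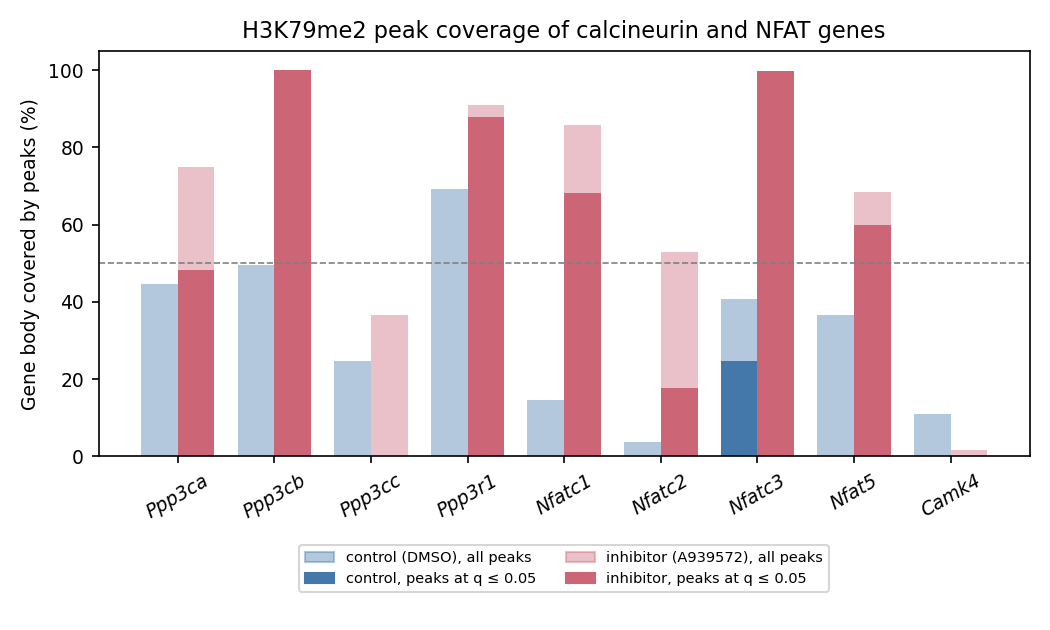
Covered percent of the gene body for each gene, with control bars in blue and inhibitor bars in red; pale bars count all peaks, full bars only peaks at q of at most 0.05, and the dashed line marks 50%. Each bar is 1 library. The control bars reach from 3.84% at Nfatc2 to 69.1% at Ppp3r1, and the full-coloured control bar stands at Nfatc3 alone.

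At the threshold of 50% of the body, 1 member was marked with DMSO and 7 with A939572. The share of all coding genes that were marked was 5.47% with DMSO and 26.1% with A939572, and among genes of the members' length range it was 5.15% and 27.9%. Ppp3r1 was the member marked in both lists. Ppp3cb lay just under the threshold with DMSO, at 49.5%, and Nfatc2 just above it with A939572, at 52.8%. With strong peaks alone, 0 members were marked with DMSO and 5 with A939572, against 1.33% and 19.6% of coding genes. A strong peak of any width was present at 1 member with DMSO and at 7 with A939572. The shares of coding genes with such a peak were 3.92% and 34.7%, and 4.78% and 41.5% among genes of the members' length range.

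The catalytic subunit genes differed from each other in both lists. Ppp3ca (chromosome 3, 136669714 to 136937727), the longest of the 9 genes, was covered over 44.7% with DMSO and 74.9% with A939572. In the control list this coverage was made of 41 peaks with a median width of 1.81 kb, none of them strong. The highest −log10 q among them was 0.32, and 1.91% of control peaks had a higher value. In the inhibitor list 7 peaks lay on the gene, and 1 of them, 130 kb wide (136668956 to 136799177), was strong, with fold 2.48 and a −log10 q of 2.41. Within the inhibitor list 13.7% of peaks had a higher −log10 q than that peak. It began 758 bp before the low-coordinate end of the gene and alone covered 48.3% of the body. A second inhibitor peak of 66.5 kb followed it with q above 0.05. Toward the high-coordinate end the order of the lists turned: the last 5 kb were covered over 12.6% with DMSO and 0% with A939572.

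Ppp3cb (chromosome 14, 20499364 to 20546573), which encodes the catalytic subunit known as CnAβ, was covered over 49.5% by 8 control peaks and 100% by 1 inhibitor peak. The inhibitor peak spanned 54.4 kb (20497745 to 20552128) with fold 3.58 and a −log10 q of 9.71, the highest −log10 q of any peak at the 9 genes. Within the inhibitor list, 2.32% of peaks had a higher −log10 q. The peak ran 5555 bp past the start of Ppp3cb and also overlapped the non-coding gene 1810062O18Rik and the coding gene Usp54, so it cannot be given to 1 gene. The widest control peak, 14.7 kb with a −log10 q of 0.68, covered the same start. Within the control list, 1.02% of peaks had a higher −log10 q.

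Ppp3cc (chromosome 14, 70217864 to 70289536), a catalytic subunit gene best known from testis, was the least covered subunit gene, over 24.7% with DMSO and 36.6% with A939572. The highest −log10 q among its 10 control peaks was 0.00, and 22.1% of control peaks had a higher value. Of its 5 inhibitor peaks, the widest spanned 23.4 kb at the high-coordinate end, with fold 2.07. Its −log10 q of 1.296 lay just below the threshold of 1.301 for a strong peak, and 18.7% of inhibitor peaks had a higher value. The 5 kb at that end were covered over 46.8% with DMSO and 100% with A939572, although the whole body differed by 12.0 points. Counted from the low-coordinate end, deciles 2 to 5 and 7 were covered more with DMSO, decile 7 over 47.9% against 8.96%. Deciles 6 and 8 to 10 were covered more with A939572.

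Ppp3r1 (chromosome 11, 17159298 to 17200380), the regulatory subunit, was the most covered member with DMSO, over 69.1%, and was covered over 91.0% with A939572. Its widest control peak, 22.5 kb, spanned 54.7% of the gene without a break, with a −log10 q of 0.31. Only 1.97% of control peaks had a higher value. The inhibitor peak over the same region was 38.0 kb wide (17157423 to 17195373), with a −log10 q of 7.70. Its fold of 4.00 was the highest at any of the 9 genes, and 3.78% of inhibitor peaks had a higher −log10 q. The difference over the whole body was 21.8 points, and with strong peaks alone it was 87.8 points.

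**Figure D2:**
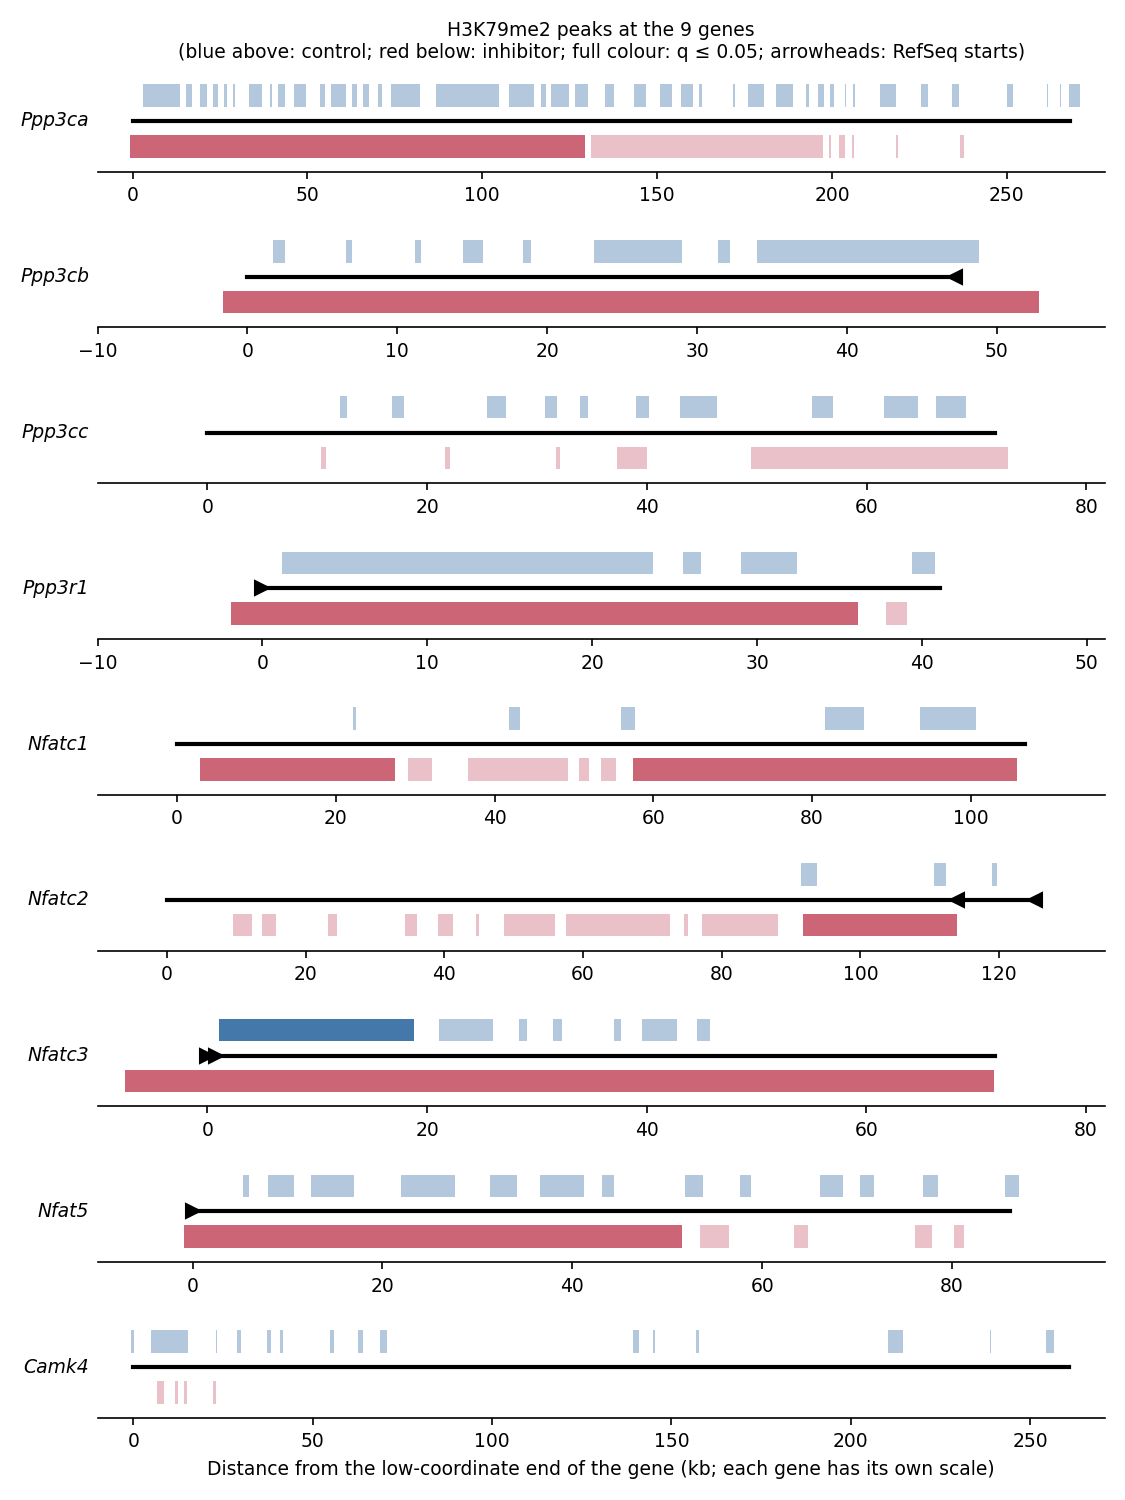
Every deposited peak at the 9 genes, as distance in kb from the low-coordinate end of each gene, with control peaks in blue above the gene line and inhibitor peaks in red below it; full colour marks q of at most 0.05, and arrowheads mark RefSeq starts where a strand was known. Control coverage is broken into 3 to 41 peaks per gene. The inhibitor list has 1 peak over Ppp3cb and 1 over Nfatc3.

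Among the transcription factor genes, Nfatc3 (chromosome 8, 106058818 to 106130537), an NFAT factor of immature thymocytes, held the only strong control peak of the 9 genes. That peak spanned 17.7 kb (106059878 to 106077604), from 1.06 kb after the gene's start, with fold 2.26 and a −log10 q of 1.42. Only 0.596% of control peaks had a higher −log10 q. Nfatc3 was covered over 40.8% with DMSO. In the inhibitor list 1 strong peak of 79.1 kb (106051346 to 106130408) covered 99.8%, with fold 3.53 and a −log10 q of 8.39, and 3.21% of inhibitor peaks had a higher value. It began 7472 bp before the gene, over the coding neighbour Dus2, and it also overlapped Esrp2, whose annotated body overlaps that of Nfatc3.

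Nfatc1 (chromosome 18, 80606205 to 80713071), an NFAT factor that calcium signals induce in lymphocytes, had the largest difference of the 9 genes, from 14.6% with DMSO to 85.7% with A939572, which is 71.1 points. The control coverage came from 5 peaks, of which the widest spanned 6.95 kb with a −log10 q of 0.12. Within the control list, 4.57% of peaks had a higher −log10 q. In the inhibitor list 2 of 6 peaks were strong, and the gene was the only member with more than 1. The stronger of them spanned 48.4 kb at the high-coordinate end (80663645 to 80712035), with fold 3.72. Its −log10 q was 6.99, and 4.54% of inhibitor peaks had a higher value. The other spanned 24.6 kb near the opposite end (80609093 to 80633666), with a −log10 q of 1.44.

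Nfatc2 (chromosome 2, 168476410 to 168601657), the NFAT factor that is abundant in resting mature T cells, was almost bare with DMSO, with 3 peaks over 3.84% of its body and a highest −log10 q of 0.00. In the inhibitor list 11 peaks covered 52.8%. The strong one of them spanned 22.3 kb (168568087 to 168590344) with fold 2.25 and a −log10 q of 1.66. Peaks with a higher −log10 q than the highest at Nfatc2 made up 26.4% of the control list and 16.8% of the inhibitor list. Strong peaks alone covered 17.8% of the gene, so the call of at least 25 points was lost without the weaker peaks. Nfat5 (chromosome 8, 107293435 to 107379517), the osmotic stress factor, was covered over 36.5% by 13 control peaks and 68.5% by 5 inhibitor peaks. Its strong inhibitor peak spanned 52.5 kb (107292489 to 107345015) with fold 2.30 and a −log10 q of 1.97. No Nfat5 peak of the control list was wider than 5.55 kb. Peaks with a higher −log10 q than the highest at Nfat5 made up 5.29% of the control list and 15.4% of the inhibitor list.

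Camk4 (chromosome 18, 32934941 to 33195767) had no strong peak in either list, as Ppp3cc had none, and was the one member with lower inhibitor coverage, 11% with DMSO and 1.79% with A939572. Of the 15 control peaks, 9 lay within 70.7 kb of the low-coordinate end and none between there and 139.3 kb, and the widest spanned 10.3 kb with a −log10 q of 0.07. The 4 inhibitor peaks all lay within 23.1 kb of the low-coordinate end, and their highest −log10 q was 0.21. In the inhibitor list 45.3% of all peaks had a higher −log10 q. In the control list 6.96% of all peaks exceeded the highest control value at Camk4. The difference of −9.17 points was smaller than the 25 points used for a call.

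**Figure D3:**
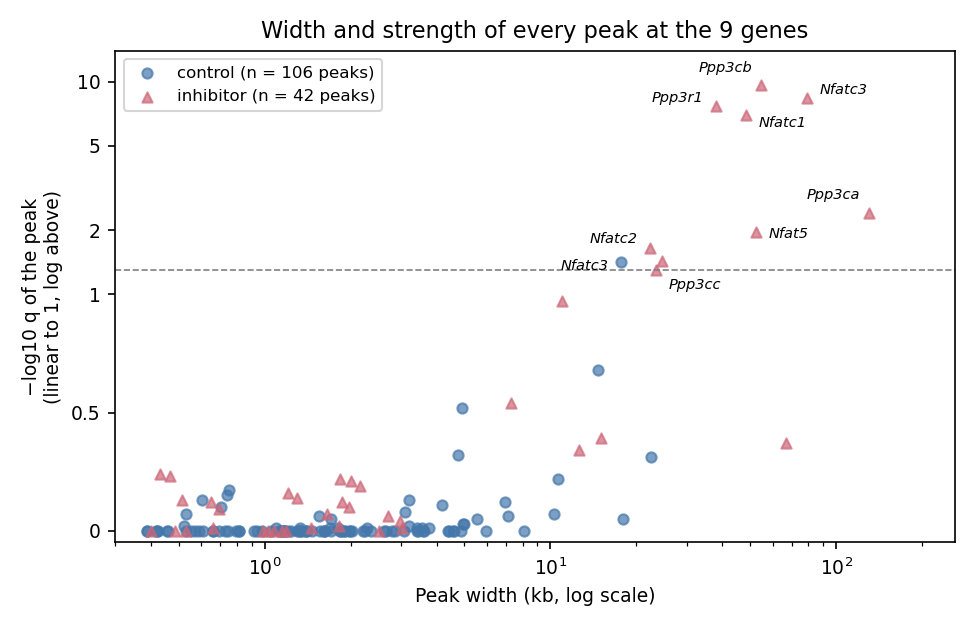
Width in kb (log scale) against −log10 q (linear up to 1, log above) for each of the 106 control and 42 inhibitor peaks at the 9 genes, with the dashed line at q of 0.05. Above the line stand 8 inhibitor peaks and 1 control peak, and the 4 peaks with −log10 q of 5 or more are all inhibitor peaks, at Ppp3cb, Nfatc3, Ppp3r1 and Nfatc1.

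Over the 9 genes together, 106 control peaks and 42 inhibitor peaks were listed, with median widths of 1.62 and 1.93 kb. The widest spanned 22.5 kb with DMSO and 130 kb with A939572. They covered 298.9 kb and 604.4 kb of a summed gene length of 1078.7 kb, or 27.7% and 56.0%. Strong peaks were 1 of the 106 control peaks and 8 of the 42 inhibitor peaks, beside 0.643% and 18.6% of all peaks in the lists, so nothing particular to the 9 genes is read from these counts. Under a stricter limit, either −log10 q from 5 upward or fold from 3 upward, no control peak was left at the 9 genes. Ppp3cb, Nfatc1 and Nfatc3 still differed by at least 25 points, and Ppp3r1, at 21.8 points with all peaks, differed by 87.8 points. The share of all coding genes that differed at these limits was not computed. In a comparison chosen after the values were seen, none of the inhibitor peaks at the 9 genes was among the strongest inhibitor peaks that together cover as much sequence as the strong control peaks, 11.1 Mb, whereas the Nfatc3 control peak is part of that control length.

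The control peaks lay mostly inside the inhibitor peaks. Of the control length on the 9 genes, 80.2% was also covered with A939572, against 54.3% over all coding genes and 62.1% over coding genes of the members' length range. The share was 100% at Ppp3cb and Nfatc3, 95.1% at Ppp3r1, 89.9% at Nfatc1, 88.3% at Ppp3ca, 81.6% at Nfatc2 and 75.6% at Nfat5. It was 49.5% at Ppp3cc and 13.8% at Camk4. Such a share can rise with the inhibitor coverage itself. That coverage averaged 67.9% at the 9 genes and 27.9% at coding genes of the members' length range. In the other direction, 39.7% of the inhibitor length on the 9 genes was covered with DMSO, from 5.93% at Nfatc2 to 84.6% at Camk4. The corresponding share was 32.5% over all coding genes and 35.6% over those of the members' length range.

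A strand and a start site were known for 5 of the genes, Ppp3cb, Ppp3r1, Nfatc2, Nfatc3 and Nfat5, from the RefSeq promoter table of GRCm38.p6. The first 5 kb were covered over at least 50% at 3 of these 5 genes with DMSO and at 4 with A939572, against 14.7% and 42.2% of the 13412 coding genes with a known strand and at least that length. At Ppp3cb both lists covered all of this window. At Ppp3r1 and Nfatc3 the control list covered 76.0% and 78.8% and the inhibitor list 100% each. At Nfat5 the window was covered over 0% with DMSO and 100% with A939572. Nfatc2 had 0% in both lists, so it was the one of the 5 genes without any coverage in this window. Its nearest control peak began 5.50 kb after its outer start and its nearest inhibitor peak 11.3 kb after it. Measured in this window, the difference fell under 25 points for Ppp3cb, Nfatc2 and Nfatc3.

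The starts fell into 3 kinds, and the 250 bases before a start are shown for an example of each, because the starts differ in whether a peak covered them. The Ppp3cb start at 20546573 lay inside a peak in both lists. The Ppp3r1 start at 17159298 lay inside an inhibitor peak that began 1.88 kb before it, while the first control peak began 1.20 kb after it. Nfatc2 has an outer start at 168601657 and an inner start at 168590365 on the minus strand, and neither lay inside a peak of either list. The strong inhibitor peak of Nfatc2 began 21 bp after the inner start and 11.3 kb after the outer start. The sequences are from RefSeq, build GRCm38.p6, written 5′ to 3′ on the strand of the gene, and capitals mark matches to the NFAT core motif GGAAA on either strand.
Nfatc2 outer start, chr2:168601658-168601907, minus strand: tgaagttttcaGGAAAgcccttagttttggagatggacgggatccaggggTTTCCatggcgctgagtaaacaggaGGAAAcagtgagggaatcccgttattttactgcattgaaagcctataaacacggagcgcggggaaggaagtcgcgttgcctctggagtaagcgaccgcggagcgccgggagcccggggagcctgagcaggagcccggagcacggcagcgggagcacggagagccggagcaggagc
Nfatc2 inner start, chr2:168590366-168590615, minus strand: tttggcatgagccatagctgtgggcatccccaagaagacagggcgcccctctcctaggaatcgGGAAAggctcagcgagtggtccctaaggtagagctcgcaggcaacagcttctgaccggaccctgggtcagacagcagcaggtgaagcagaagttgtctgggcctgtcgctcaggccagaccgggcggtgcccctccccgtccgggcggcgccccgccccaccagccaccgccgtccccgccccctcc
Ppp3r1 start, chr11:17159048-17159297, plus strand: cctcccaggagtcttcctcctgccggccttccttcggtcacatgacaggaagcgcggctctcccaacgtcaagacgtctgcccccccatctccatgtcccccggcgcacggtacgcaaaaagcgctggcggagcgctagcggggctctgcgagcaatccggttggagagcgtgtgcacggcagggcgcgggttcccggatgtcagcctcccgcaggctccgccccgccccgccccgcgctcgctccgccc
Ppp3cb start, chr14:20546574-20546823, minus strand: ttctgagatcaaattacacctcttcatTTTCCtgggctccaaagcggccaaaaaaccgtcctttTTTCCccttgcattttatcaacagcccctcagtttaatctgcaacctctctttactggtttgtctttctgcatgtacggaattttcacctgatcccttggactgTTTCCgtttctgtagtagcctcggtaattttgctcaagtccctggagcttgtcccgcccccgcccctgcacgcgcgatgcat

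The motif GGAAA, which some factors outside the NFAT family also bind, was found 3 times before the outer Nfatc2 start, at 239, 200 and 175 bases before it, and once before the inner start, at 187 bases. Ppp3cb had 3 matches and Ppp3r1 had 0. At least 1 match was present in 54.6% of the 21263 windows of the same length before starts of coding genes. The GC box GGGCGG, searched on both strands with overlapping matches counted, was found 0 times before the outer Nfatc2 start and 4 times before the inner one. It was found 4 times at Ppp3r1 and 2 times at Ppp3cb, and in 42.6% of all windows. The outer Nfatc2 start had 1 match to the TATA box TATAAA, which 11.6% of windows held, and the 3 other windows shown had none. GC content was 59.6% before the outer Nfatc2 start, 67.6% before the inner one, 70.8% at Ppp3r1 and 48.4% at Ppp3cb, against a median of 55.6%. None of these windows held the cAMP response element TGACGTCA (1.92% of windows) or the AP-1 site TGANTCA (6.13%).

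The position of strong inhibitor peaks was compared with starts over all genes, a comparison chosen after the Nfatc2 values were seen. Of 1032 coding genes with starts over 5 kb apart, 406 held a strong inhibitor peak. In 33 of these, 8.13%, the most 5′ strong peak began within 1 kb of an inner start, as at Nfatc2. In 97, or 23.9%, it began within 1 kb of the outer start, and in 276 near neither. Over all 6199 coding genes with a strand and a strong inhibitor peak, 72.1% of these edges lay before the outer start, and the median position relative to it was −1211 bp. The edges at Ppp3cb, Ppp3r1, Nfatc3 and Nfat5 also lay before the start, by 5.55, 1.88, 7.47 and 0.981 kb.

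**Figure D4:**
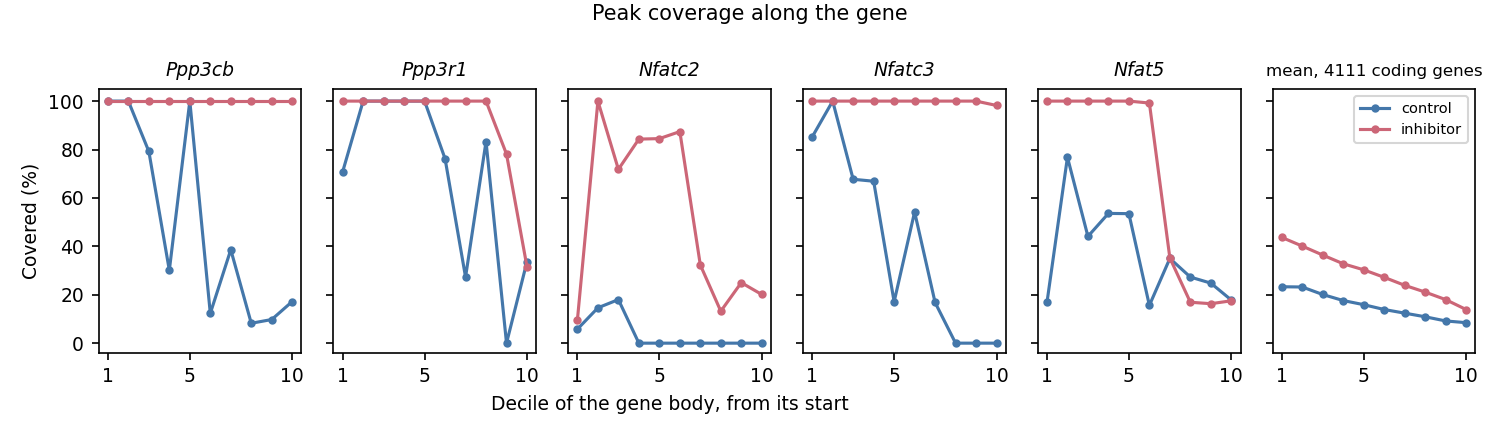
Covered percent in each decile of the gene body, counted from the gene's start, for the 5 genes with a known strand and, in the last panel, the mean over 4111 coding genes of the members' length range with a known strand; control in blue, inhibitor in red, 1 library each. Nfatc2 rises from 9.68% in the first decile to 100% in the next with A939572, and Nfat5 drops after decile 6.

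Along the gene, coverage was highest near the start and fell toward the end at Ppp3r1 and Nfat5 with A939572 and at Nfatc3 with DMSO. Nfat5 was covered over 99.2% to 100% in each of its first 6 deciles with A939572 and over 16.3% to 35.2% in the last 4. In the control list its first decile was covered over 16.8% and its second over 76.8%. Nfatc3 had no control coverage in its last 3 deciles, whereas the inhibitor list covered at least 98.2% of every decile. Ppp3cb was covered over 100% of its first 2 deciles in both lists and over 17.2% of its last decile with DMSO, against 100% with A939572. In the last decile the lists were close at Ppp3r1, 33.7% with DMSO and 31.5% with A939572, and at Nfat5, 17.8% and 17.5%. Averaged over 4111 coding genes of the members' length range, coverage fell from 23.3% in the first decile to 8.46% in the last with DMSO, and from 43.7% to 13.9% with A939572.

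**Figure D5:**
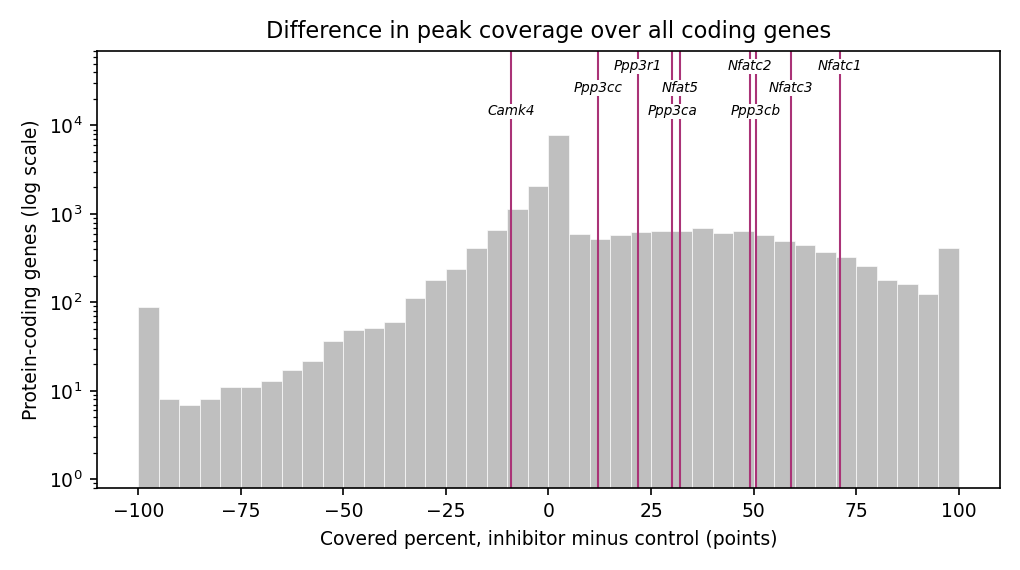
Number of protein-coding genes (log scale) by difference in covered percent, inhibitor minus control, in bins of 5 points, with vertical lines at the 9 genes. Camk4 stands at −9.17 points and Nfatc1 at 71.1 points. The tallest bin, just above 0, includes the genes with no peak in either list.

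Around these 9 genes, 6 lists of pathway genes were examined, 56 genes in all and each of them measured. The lists, too, were chosen with earlier results of these data known. Of the 56, 11 were covered over at least 50% with DMSO and 29 with A939572, 27 were higher by 25 points or more with A939572 and 0 with DMSO. These shares stand beside the 5.47%, 26.1%, 30.1% and 3.07% of all coding genes given above. Among 12 partners and regulators of calcineurin, 7 were higher with A939572 by 25 points or more. Chp1, a calcineurin-like calcium-binding protein, was covered over 7.34% and 54.6%. Ppia, which encodes cyclophilin A, the receptor of ciclosporin, was covered over 52.9% and 100% by strong peaks in both lists. Ppp3r2, the regulatory subunit of testis, held no peak in either list.

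Of 10 kinases that return NFAT to the cytoplasm and transport factors, 8 differed by at least 25 points, against 30.1% of all coding genes. The lowest of the 8 passed narrowly, at 25.1 points, and the median difference of the 10 was 39.7 points. Gsk3a, an NFAT export kinase, was covered over 15.0% and 100%, by a peak of 42.5 kb that also spans 2 other coding genes. Kpnb1, the nuclear import receptor importin β, was covered over 16.1% and 99.2%, and Homer3, a scaffold that competes with calcineurin for NFAT, over 0% and 80%, with another coding gene overlapping its body. Of 10 genes of the calmodulin kinase cascade, to which Camk4 belongs, 3 differed by at least 25 points, with a median of 15.5 points. Camk2g was covered over 25% and 77.4%, and Camkk2, a kinase that activates CaMKIV and overlaps another coding gene, over 7.57% and 58.8%. Creb1, the CaMKIV substrate, was covered over 50.7% and 100%, and its strongest inhibitor peak, of 83.2 kb, also spans the coding gene Mettl21a. Camk1 held no peak in either list.

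Of 10 transcription factors that act beside NFAT, 7 were higher with A939572 by 25 points or more, with a median of 59.1 points. The short AP-1 genes Jund, Junb and Jun had no control peak and were covered over 100%, 97.8% and 96.3% with A939572 by strong peaks of 6.18, 3.93 and 3.41 kb, the first of which also spans Iqcn and the second Prdx2. Fos and Irf4 held no peak in either list. Among 12 genes that NFAT induces in activated T cells, 1 differed by at least 25 points, against 30.1% of all coding genes. The median difference of the 12 was 0.356 points. That gene was Tnf, covered over 0% and 100% by a strong peak of 19.4 kb that also spans Lst1 and Ltb. Tox and Pdcd1, both covered in the 2 lists, followed with 66.9% and 91.7%, and 68.2% and 88.9%. The difference at Tox, 24.8 points, lay just under the 25 points used for a call. With strong peaks alone, 0 of the 12 were marked with DMSO and 3 with A939572, against 1.33% and 19.6% of coding genes. Cd40lg and Csf2 held no peak in either list. Of 2 further genes named after NFAT, Nfatc2ip was covered over 0% and 26.8%, and Nfatc4 held no peak in either list.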

How the data were processed

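H3K79me2 ChIP-seq of 2 libraries, 1 control and 1 inhibitor, was analysed as broad peak lists; the matching inputs were not used here. Per the submitters' processing notes, BWA, MACS2 2.1.0 and mm10 were used, with no role stated for any of them. Each deposited peak carries a fold enrichment, a −log10 p and a −log10 q as the authors gave them. The deposited score is the whole part of 10 times −log10 q. How the caller was set, and whether it used the input, is not given in the sources used here. Deposited −log10 p values began at 1.00, and the read depth is unknown.

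Touching peaks were joined and overlapped with RefSeq gene bodies of GRCm38.p6 (Python 3.11.15, numpy 2.4.6, pandas 2.3.3, matplotlib 3.10.9). The covered percent of the body was compared between the lists, and genes were called marked at 50% or differing at 25 points. Strand came from the RefSeq promoter table, which matched 5 of the 9 members; Ppp3ca, Ppp3cc, Nfatc1 and Camk4 were not in it. Peaks shared with a neighbouring gene cannot be assigned to 1 gene. The coverage function was checked on simulated peaks with known answers. Members and lists were chosen with earlier results of these data known. Named pathway genes are up to 3 per list with the largest difference and up to 2 without a peak; 1 gene so chosen is not reported here.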

Additional observations from a re-analysis of the deposited data

How the results depend on the processing

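The main values were 1 member marked with DMSO, 7 with A939572, 6 higher with A939572 by 25 points or more, 0 with DMSO, and a median difference of 32.0 points. With peaks at q of at most 0.05, 0 members were marked with DMSO and the median was 59.9 points. With −log10 q of at least 5, and equally with fold enrichment of at least 3, 0 and 3 members were marked and the median was 0 points. With the same number of peaks in both lists the median was 52.2 points. When any covered base was enough, 9 members were marked with DMSO, and at 80% of the body 0 and 4 were marked. At a difference of 50 points, 3 members were higher with A939572. In the first 5 kb, or the better covered end where no strand was known, 3 members were marked with DMSO. With inhibitor peaks cut to the covered length of strong control peaks, chosen after seeing the data, 0 members were marked in either list, 0 were higher with A939572, the median was 0 points, and Nfatc3 stood at −24.7 points. Requiring most of a peak's width inside the gene, and leaving out Nfatc3, which overlaps another coding gene, moved none of these values by over 1.5 times. Merging peaks within 1 kb could change nothing, because no neighbouring peaks of a list lay that close at the 9 genes. Of 72 recomputed differences of single members, 45 were above 0, 22 were 0 and 5 were below 0. Those after merging are included and repeat the main values. No paired analysis was possible because each condition had 1 library. Depth and replicate spread are unknown, so the size of a difference between conditions has no error. For most of the other settings no share or median over all coding genes was computed, so nothing particular to the 9 genes is read from them.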

Other observations

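Some genes of the pathway lists were covered less with A939572 than with DMSO, and none of those named here held a strong peak. They were chosen after their values were seen. Rcan1, a calcineurin inhibitor that NFAT induces, was covered over 1.53% with DMSO and 0% with A939572, and its relative Rcan2 over 1.45% and 0.302%. Il2, the T cell growth factor gene, was covered over 8.07% and 0%. Il4, a cytokine gene of helper T cells, was covered over 74.1% and 57.5%, with a highest −log10 q of 0.30 and 0.64. Crem, a relative of Creb1, was covered over 18.6% and 5.29%.

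Camk2d, the calmodulin kinase II gene of 250.8 kb, was close to Camk4 in length (260.8 kb) and was also named after its values were seen. It was covered over 57.8% with DMSO and 77.3% with A939572, and strong inhibitor peaks covered 68.1% of it.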
